A study of Homo sapiens with 6 samples.

Results

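The ubiquitin-specific proteases (USPs) were described in UM-SCC1, a human cell line established from a squamous cell carcinoma of the head and neck (HNSCC), after transfection with miR-204-5p mimics. All rows of the deposited gene table with a symbol made of USP, a number and at most 1 further letter were taken, apart from USP18 and genes on the Y chromosome. The table held 48 rows with such a symbol, and 47 USP genes of 14959 genes in all remained without USP18. RNA of 3 cultures given miR-204-5p mimics and of 3 given control mimics was sequenced 48 h after transfection. The mimics are synthetic double-stranded RNAs (miRIDIAN) that were delivered with a lipid reagent (Lipofectamine RNAiMax), so that both groups had received an oligonucleotide and the reagent and differed in the sequence of the mimic. All 6 libraries come from 1 cell line, and the submitters describe the cultures of a group as independent experiments. The question addressed was which genes changed with an excess of miR-204-5p.

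USPs are cysteine proteases that cut ubiquitin from proteins or take ubiquitin chains apart, and they form the largest family of deubiquitinases in human cells. A ubiquitin tag can send a protein to the proteasome, or change its activity, partners or place in the cell, and a USP can reverse this. Individual USPs act on histones, DNA repair factors, p53 and its ligase MDM2, growth factor receptors and the signal mediators of the TGF-beta and Wnt pathways, and several have been studied in squamous tumours. A miRNA guides Argonaute to mRNAs that pair with its seed, usually in the 3' untranslated region (3'UTR), and lowers their stability or translation.

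The sequence of miR-204-5p is shown because its seed, bases 2 to 8 in capitals, defines the matches that were sought in the USP mRNAs. It was taken from RefSeq (GRCh38.p14), where the mature miRNA of 22 bases lies on the minus strand at chr9:70810031-70810052.
hsa-miR-204-5p: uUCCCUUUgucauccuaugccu

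Matches were the reverse complement of the seed followed by A (AAAGGGAA, 8mer), the reverse complement alone (AAAGGGA, 7mer-m8), or that of bases 2 to 7 followed by A (AAGGGAA, 7mer-A1), each on the mRNA strand, and a site was given the longest class that it met. For each of the 5 USP genes that fell and held a match in the 3'UTR, the site of the longest class is shown, with that of USP46, which rose, for contrast, all from GENCODE 29 transcripts (GRCh38). The capitals mark the match. The 6 sites lie in the last exon of the gene's transcript with the longest 3'UTR, at chr11:113797931-113797938 (USP28, minus strand), chr16:23064383-23064389 (USP31, minus), chr11:11956394-11956400 (USP47, plus), chr21:29054327-29054333 (USP16, plus), chr2:218452123-218452129 (USP37, minus) and chr4:52592921-52592928 (USP46, minus). USP47 held a further 7mer-A1 at chr11:11958885-11958891 and USP46 a further 7mer-m8 at chr4:52591712-52591718.
USP28 3'UTR, 8mer: atggaatcatgAAAGGGAAaaaaattgata
USP31 3'UTR, 7mer-m8: caacagtatgtAAAGGGAccaagagtggc
USP47 3'UTR, 7mer-m8: ctgtaaagtgaAAAGGGAtgtgcaaaaaa
USP16 3'UTR, 7mer-A1: tttaaatattgAAGGGAAaaatacctaaa
USP37 3'UTR, 7mer-A1: gttggaattttAAGGGAAaaatgaactaa
USP46 3'UTR, 8mer: cagcagaaggcAAAGGGAAagcaagcccat

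The 8mer was also found inside coding sequences. Those of USP24 (exon 12 of 68, chr1:55157010-55157017, minus), USP16 (exon 2, chr21:29027931-29027938, plus), USP37 (exon 21, chr2:218466055-218466062, minus) and USP53 (exon 11, chr4:119269712-119269719, plus) are shown because these 4 genes with a coding 8mer fell. USP10 and USP40 also held a coding 8mer, are not shown and were not called. The search of coding sequences was chosen after the values had been seen.
USP24 coding, 8mer: tgtgaccgtatAAAGGGAAttattgaactc
USP16 coding, 8mer: aagaaacggacAAAGGGAAaaactgttcca
USP37 coding, 8mer: tatggagcgtgAAAGGGAAgagcaagagct
USP53 coding, 8mer: tcacattgatcAAAGGGAAaagataaaaga

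Levels were given as FPKM, that is fragments per kilobase of transcript, scaled to the mapped fragments of the library. The number of fragments per library was not part of the table, so the depth behind a value is unknown. Within a group the libraries correlated across genes with Spearman's rho of 0.990 to 0.991, and between groups with 0.973 to 0.976, where genes are not independent replicates. From 161 to 270 genes per library were listed at 0 FPKM. All 6 markers of squamous epithelium (KRT5, KRT14, KRT17, TP63, CDH1 and EPCAM) were present, with a summed level of 509 to 611 FPKM with miR-204-5p mimics and 695 to 726 FPKM with control mimics, and 4 of the 6 fell while CDH1 rose. Among markers of other cell types, the 3 leukocyte markers, mostly CD68, summed to 9.92 to 10.9 FPKM with miR-204-5p mimics and to 10.4 to 12.1 FPKM in controls, with PTPRC at 0.120 to 0.546 FPKM, the 3 endothelial markers summed to 0.590 to 0.767 FPKM with miR-204-5p mimics and to 0.443 to 0.502 FPKM in controls, and the 3 fibroblast markers in the table, mostly COL1A1, summed to 9.81 to 11.5 FPKM and 8.58 to 9.31 FPKM. The part of these differences in the results on USP genes was not tested. In bulk RNA, fewer cells with a transcript and less of it per cell cannot be told apart.

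UM-SCC1 cells expressed most of the family. The mean level over the 6 libraries was at least 1 FPKM for 43 of the 47 USP genes. USP22, the deubiquitinase of the SAGA coactivator complex, was highest at 58.4 FPKM, followed by USP5 at 49.0 FPKM, USP10 at 34.3 FPKM and USP7 at 27.3 FPKM. In controls alone USP5 (63.2 to 64.2 FPKM) exceeded USP22 (59.5 to 60.3 FPKM), and with miR-204-5p mimics USP22 (55.5 to 58.7 FPKM) exceeded USP5 (32.5 to 36.2 FPKM). The 4 genes under 1 FPKM were USP41, USP6, USP51 and USP44.

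**Figure D1:**
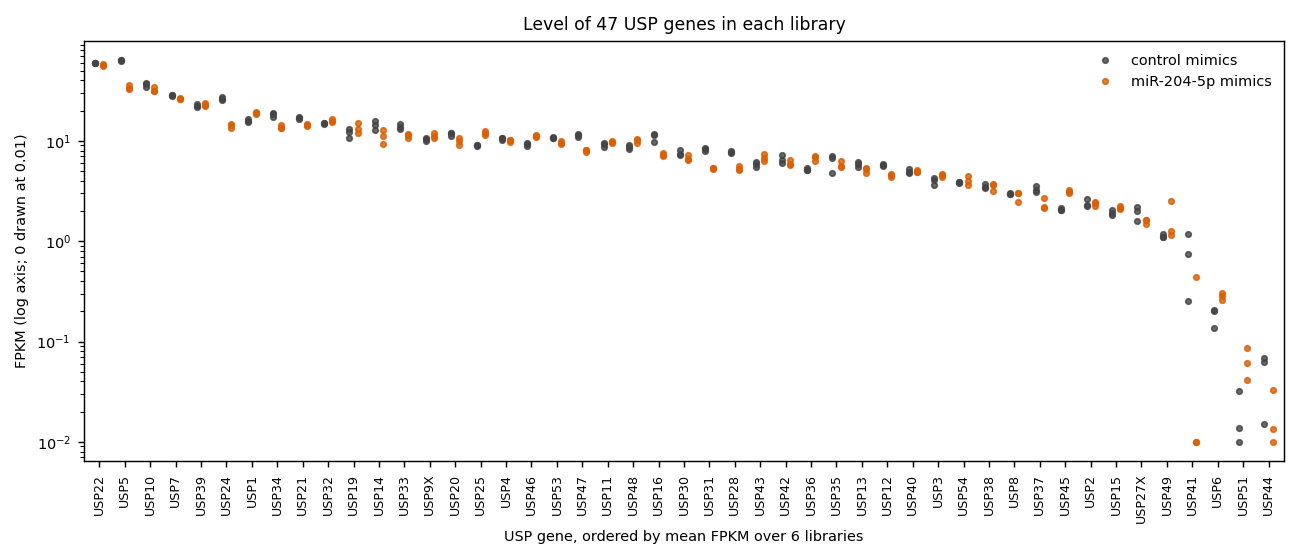
FPKM (log axis, 0 drawn at 0.01) of each of the 47 USP genes in the 3 libraries with control mimics and the 3 with miR-204-5p mimics, ordered by mean level. Levels run from 58.4 FPKM for USP22 to 0.0320 FPKM for USP44, and the widest gap between the groups among the high genes is that of USP5.

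The summed level of the 47 genes was lower with miR-204-5p mimics. It was 461, 474 and 476 FPKM with miR-204-5p mimics and 542, 532 and 536 FPKM with control mimics, so that the groups did not overlap and the mean with miR-204-5p mimics was 87.7% of that in controls. USP5 and USP24, singled out after their values had been seen, made up 62.8% of the difference. Without them the sums were 415 to 426 FPKM and 443 to 451 FPKM, or 94.5% of the control mean.

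Each gene was tested with limma on log2(FPKM + 1), with the p-value adjusted over all 14959 genes, and a gene with an adjusted p under 0.05 was called. By this test 13 USP genes fell, 6 rose and 28 were not called. The called share of the family, 40.4%, was near the 40.8% of all genes. By direction, 27.7% of USP genes fell beside 16.8% of all genes, and 12.8% rose beside 23.9%. Among genes with a mean of at least 1 FPKM, 30.2% of 43 USP genes fell and 14% rose, beside 20.1% and 27.7% of 11504 genes. The median log2 fold change of the family was -0.06 and that of all genes 0.03, and the median size of the change was 0.16 and 0.18. These shares describe the family, and its difference from other genes was not tested. All log2 fold changes given here are on the log2(FPKM + 1) scale and are smaller than the change in FPKM itself where levels are low.

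Without regard to the test, all 3 libraries with miR-204-5p mimics lay below all 3 controls for 20 USP genes and above them for 12, and the groups overlapped for 15. That is 68.1% of the family without overlap, beside 53.6% of all genes, of which 22.7% lay below and 30.9% above. Among genes with a mean of at least 1 FPKM it was 69.8% of USP genes, beside 60.3% of all genes.

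**Figure D2:**
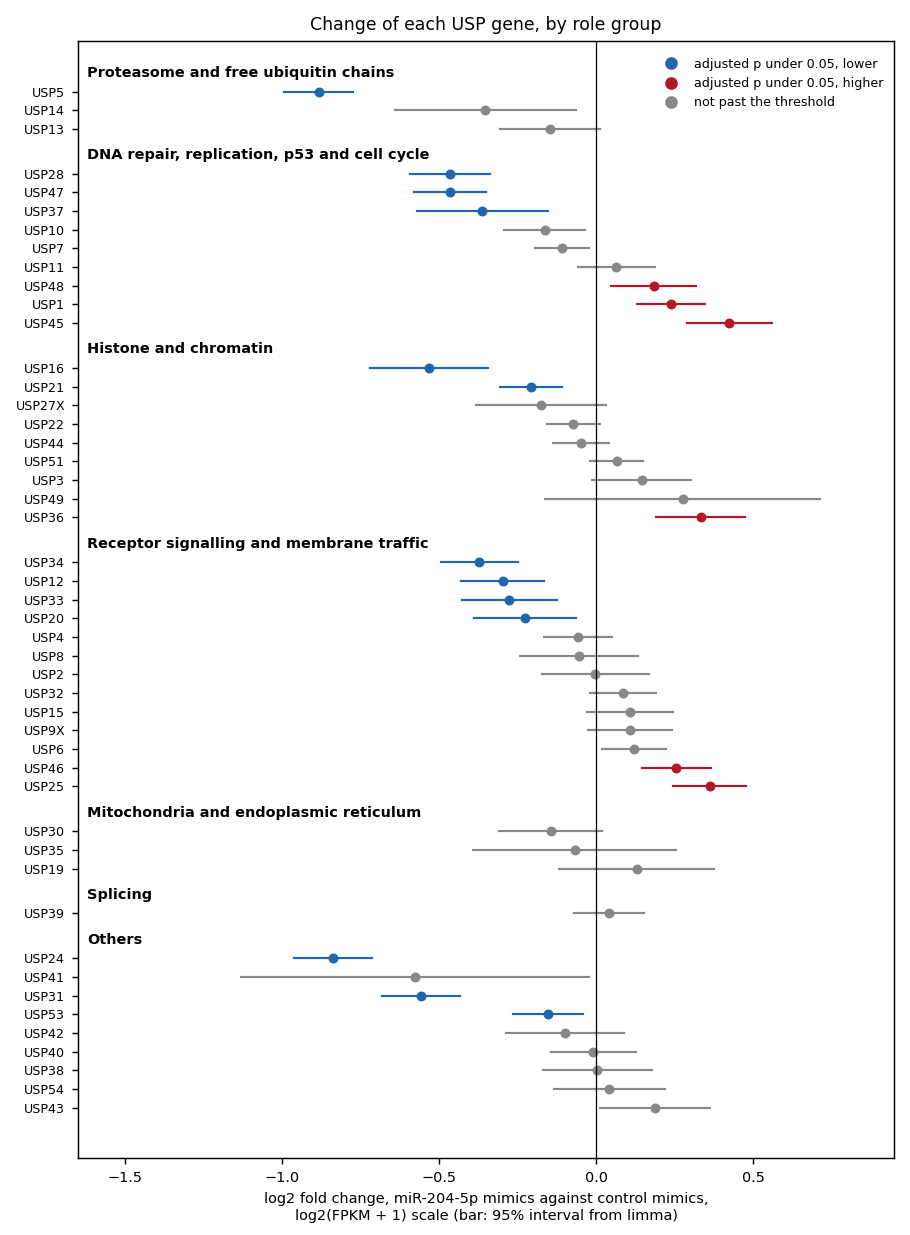
Log2 fold change of each USP gene with its 95% interval from limma, on the log2(FPKM + 1) scale, arranged by the role the gene is known for. The 13 genes that fell span -0.88 (USP5) to -0.15 (USP53) and the 6 that rose span 0.18 (USP48) to 0.42 (USP45).

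Among the 3 USPs of the proteasome and of free ubiquitin chains, 1 fell and 2 were not called. USP5 (isopeptidase T; ENSG00000111667, listed transcript at chr12:6852128-6866629, plus strand) takes apart ubiquitin chains that are not attached to a protein. Its level was 32.5, 33.7 and 36.2 FPKM with miR-204-5p mimics and 64.0, 63.2 and 64.2 FPKM with control mimics. The groups were far apart compared with the spread within them, and the mean of 34.2 ± 1.89 FPKM (SD, n = 3) was 0.535 times that of controls, 63.8 ± 0.522 FPKM. On the log2(FPKM + 1) scale USP5 had the largest fall in the family, with a log2 fold change of -0.88 (SE 0.0460, adjusted p = 6.98e-05 with limma). With a pseudocount of 0.1 USP5 was at -0.90, and USP41, which was scarce and not called, was at -2.05.

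USP14, which sits on the proteasome and trims chains from its substrates, was at 11.1, 12.7 and 9.23 FPKM with miR-204-5p mimics and at 12.8, 14.3 and 15.7 FPKM in controls. The groups did not overlap, but the libraries within each were widely spread. Its log2 fold change of -0.35 was not called (95% interval -0.64 to -0.06, adjusted p = 0.0568 with limma). USP13, the closest relative of USP5, was at 5.16 ± 0.308 FPKM against 5.81 ± 0.314 FPKM (n = 3 each) and was not called (log2 fold change -0.15, 95% interval -0.30 to 0.01).

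Of 9 USPs known for DNA repair, replication, p53 and the cell cycle, 3 fell, 3 rose and 3 were not called. The 3 that fell were USP28, which stabilises MYC, USP47, which acts on the base excision repair polymerase beta, and USP37, which acts on cyclin A. USP28 was at 5.13, 5.55 and 5.21 FPKM with miR-204-5p mimics and at 7.66, 7.58 and 7.84 FPKM in controls. All values with miR-204-5p mimics lay below all controls, and the log2 fold change was -0.47 (SE 0.0529, adjusted p = 0.000901 with limma). USP47 had a change of the same size, from 11.3 ± 0.322 FPKM to 7.94 ± 0.237 FPKM (log2 fold change -0.47, adjusted p = 0.000630 with limma). USP37 was low, at 2.17, 2.70 and 2.15 FPKM against 3.27, 3.07 and 3.52 FPKM, and its log2 fold change was -0.36 (adjusted p = 0.0167 with limma). This call was lost without the first or the third library with miR-204-5p mimics, or without the third control library, with adjusted p-values up to 0.0543 when 1 library was left out.

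The 3 that rose were USP45, USP1 and USP48. USP45, which acts on the repair nuclease subunit ERCC1 (listed transcript at chr6:99432379-99515425, minus strand), was at 3.07, 3.26 and 3.05 FPKM with miR-204-5p mimics and at 2.14, 2.05 and 2.04 FPKM in controls. The groups were well separated, and the log2 fold change of 0.42 was the largest rise in the family (SE 0.0566, adjusted p = 0.00167 with limma), with a ratio of the group means of 1.51. TSTD3 overlaps USP45 over 208 exonic bases, and USP14, USP20, USP35, USP39, USP4 and USP49 also share exonic bases with another gene of the table. USP1, which removes ubiquitin from FANCD2 and PCNA, was at 19.0 ± 0.353 FPKM against 15.9 ± 0.687 FPKM (log2 fold change 0.24, adjusted p = 0.00668 with limma). The transcript listed for USP1 has 893 bases of the 3996 of its longest transcript. USP48 was at 10.3, 9.43 and 10.4 FPKM against 8.78, 8.99 and 8.33 FPKM, with a log2 fold change of 0.18 and an adjusted p of 0.0407 with limma. That call was lost without any 1 of 5 libraries, with adjusted p-values of up to 0.113, and held without the second library with miR-204-5p mimics. It was also lost with libraries scaled to equal medians and with quantile normalization.

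USP7, which acts on MDM2 and p53, was at 25.9, 26.9 and 25.9 FPKM with miR-204-5p mimics and at 28.6, 28.4 and 27.9 FPKM in controls. The groups did not overlap, but the difference was small (log2 fold change -0.11, 95% interval -0.19 to -0.02) and was not called (adjusted p = 0.0515 with limma). USP10, which acts on p53 in the cytoplasm, was likewise just outside the threshold, with 32.3 ± 1.62 FPKM against 36.3 ± 1.77 FPKM and a log2 fold change of -0.16 (adjusted p = 0.0505 with limma). USP11, a partner of BRCA2, had a log2 fold change of 0.06 and was not called.

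Of 9 USPs known for histones and chromatin, 2 fell, 1 rose and 6 were not called. USP16, a histone deubiquitinase needed for entry into mitosis, was at 7.15, 7.50 and 7.12 FPKM with miR-204-5p mimics and at 11.8, 11.5 and 9.68 FPKM in controls. The third control was the lowest of its group and still lay above all libraries with miR-204-5p mimics, and the log2 fold change was -0.53 (SE 0.0784, adjusted p = 0.00246 with limma). USP21, which also acts on histones, moved less, from 16.9 ± 0.335 FPKM to 14.5 ± 0.367 FPKM (log2 fold change -0.21, adjusted p = 0.00808 with limma). USP36, a deubiquitinase of the nucleolus, rose from 5.20 ± 0.108 FPKM to 6.82 ± 0.400 FPKM (log2 fold change 0.33, adjusted p = 0.00539 with limma). The transcript listed for USP36 has 607 of the 6063 bases of its longest transcript and is annotated as a target of nonsense-mediated decay.

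USP22 was at 55.5, 56.7 and 58.7 FPKM with miR-204-5p mimics and at 59.5, 60.3 and 59.9 FPKM in controls. The groups did not overlap, yet the log2 fold change of -0.07 was small and was not called (adjusted p = 0.148 with limma). Its relatives USP27X and USP51, which can bind the same SAGA partners, were not called either. USP51 was scarce, at 0.0417 to 0.0869 FPKM with miR-204-5p mimics and at 0 to 0.0323 FPKM in controls. USP49, another histone deubiquitinase, was at 2.51, 1.26 and 1.15 FPKM with miR-204-5p mimics and at 1.10, 1.09 and 1.19 FPKM in controls. A single library carried its difference, which was not called (log2 fold change 0.28, adjusted p = 0.276 with limma). USP3 and USP44 were not called, with log2 fold changes of 0.15 and -0.05.

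Of 13 USPs known for receptor signalling and membrane traffic, 4 fell, 2 rose and 7 were not called. USP34, which acts on axin in the Wnt pathway, was at 13.4, 14.3 and 13.5 FPKM with miR-204-5p mimics and at 18.4, 18.8 and 17.1 FPKM in controls. The groups were clearly separated, and the log2 fold change was -0.37 (SE 0.0510, adjusted p = 0.00187 with limma). USP12, which works with WDR48 and WDR20, fell from 5.80 ± 0.129 FPKM to 4.54 ± 0.176 FPKM (log2 fold change -0.30, adjusted p = 0.00610 with limma). USP33, which takes part in receptor recycling, fell from 13.8 ± 0.876 FPKM to 11.2 ± 0.601 FPKM (log2 fold change -0.28, adjusted p = 0.0137 with limma). Its relative USP20 was at 9.08, 9.86 and 10.8 FPKM against 11.9, 11.3 and 12.0 FPKM, with a log2 fold change of -0.23 and an adjusted p of 0.0376 with limma. The call for USP20 was lost without any 1 of 5 libraries, with adjusted p-values of up to 0.101, and held without the third library with miR-204-5p mimics.

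The 2 that rose were USP25 and USP46. USP25, which acts on TRAF proteins and tankyrases (listed transcript at chr21:15730025-15878911, plus strand), was at 11.9, 12.4 and 11.4 FPKM with miR-204-5p mimics and at 9.18, 8.81 and 9.12 FPKM in controls. The groups were well apart, and the log2 fold change was 0.36 (SE 0.0488, adjusted p = 0.00174 with limma). USP46, a partner of WDR48 like USP12, was at 11.2 ± 0.187 FPKM against 9.21 ± 0.298 FPKM (log2 fold change 0.26, adjusted p = 0.00552 with limma).

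USP4 and USP15, which act in TGF-beta signalling, had log2 fold changes of -0.06 and 0.11 and were not called. USP9X, which acts on SMAD4 and MCL1, was at 10.6, 11.9 and 11.3 FPKM with miR-204-5p mimics and at 10.1, 10.7 and 10.4 FPKM in controls, so that the groups overlapped (log2 fold change 0.11, adjusted p = 0.167 with limma). USP8, which acts on receptors at endosomes, had a log2 fold change of -0.05, but the transcript listed for it has 652 of the 19026 bases of the longest. USP6, an oncogene of mesenchymal tumours that arose from USP32, was at 0.307, 0.286 and 0.261 FPKM with miR-204-5p mimics and at 0.208, 0.136 and 0.203 FPKM in controls. It was higher in all 3 libraries with miR-204-5p mimics but not called (log2 fold change 0.12, adjusted p = 0.0629 with limma). Of the stretches of 31 bases in the longest transcript of USP6, 11.9% also occur in transcripts of USP32. How fragments were divided between USP6 and USP32 is therefore uncertain.

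None of the 3 USPs of mitochondria and the endoplasmic reticulum was called. USP30, which opposes parkin on the outer mitochondrial membrane, had a log2 fold change of -0.14 (adjusted p = 0.140 with limma). USP35 ranged from 5.51 to 6.23 FPKM with miR-204-5p mimics and from 4.76 to 7.13 FPKM in controls. USP19, which is anchored in the endoplasmic reticulum, had a log2 fold change of 0.13. USP39, a splicing factor that lacks protease activity, was at 23.0 ± 0.752 FPKM against 22.3 ± 0.923 FPKM and was not called (log2 fold change 0.04, adjusted p = 0.516 with limma).

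Of the 9 other USP genes, 3 fell and 6 were not called. USP24, one of the largest USPs (ENSG00000162402, listed transcript at chr1:55066359-55215113, minus strand), was at 13.4, 14.5 and 14.8 FPKM with miR-204-5p mimics and at 27.2, 25.6 and 25.9 FPKM in controls. The groups were far apart compared with the spread within them. The mean of 14.2 ± 0.767 FPKM was 0.543 times that of controls, 26.2 ± 0.830 FPKM, and the log2 fold change was -0.84 (SE 0.0516, adjusted p = 0.000109 with limma). USP31 was at 5.32, 5.21 and 5.36 FPKM against 8.33, 8.54 and 7.94 FPKM, a log2 fold change of -0.56 (SE 0.0515, adjusted p = 0.000417 with limma). The libraries with miR-204-5p mimics differed little among themselves and lay well below the controls. USP53, which has been linked to cell junctions, was at 9.57 ± 0.290 FPKM against 10.8 ± 0.244 FPKM and had the smallest called fall (log2 fold change -0.15, adjusted p = 0.0382 with limma). The call for USP53 was lost without any 1 of 5 libraries, with adjusted p-values of up to 0.110, and held without the first library with miR-204-5p mimics.

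USP41 was at 0, 0.438 and 0 FPKM with miR-204-5p mimics and at 0.751, 0.251 and 1.18 FPKM in controls. The groups overlapped, the gene was listed at 0 in 2 libraries and the gene was not called (log2 fold change -0.58, 95% interval -1.13 to -0.02). Of the stretches of 31 bases in its longest transcript, 41.8% also occur in USP18, so its level is uncertain. USP38, USP40, USP42, USP43 and USP54 were not called, with log2 fold changes from -0.10 (USP42) to 0.19 (USP43).

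**Figure D3:**
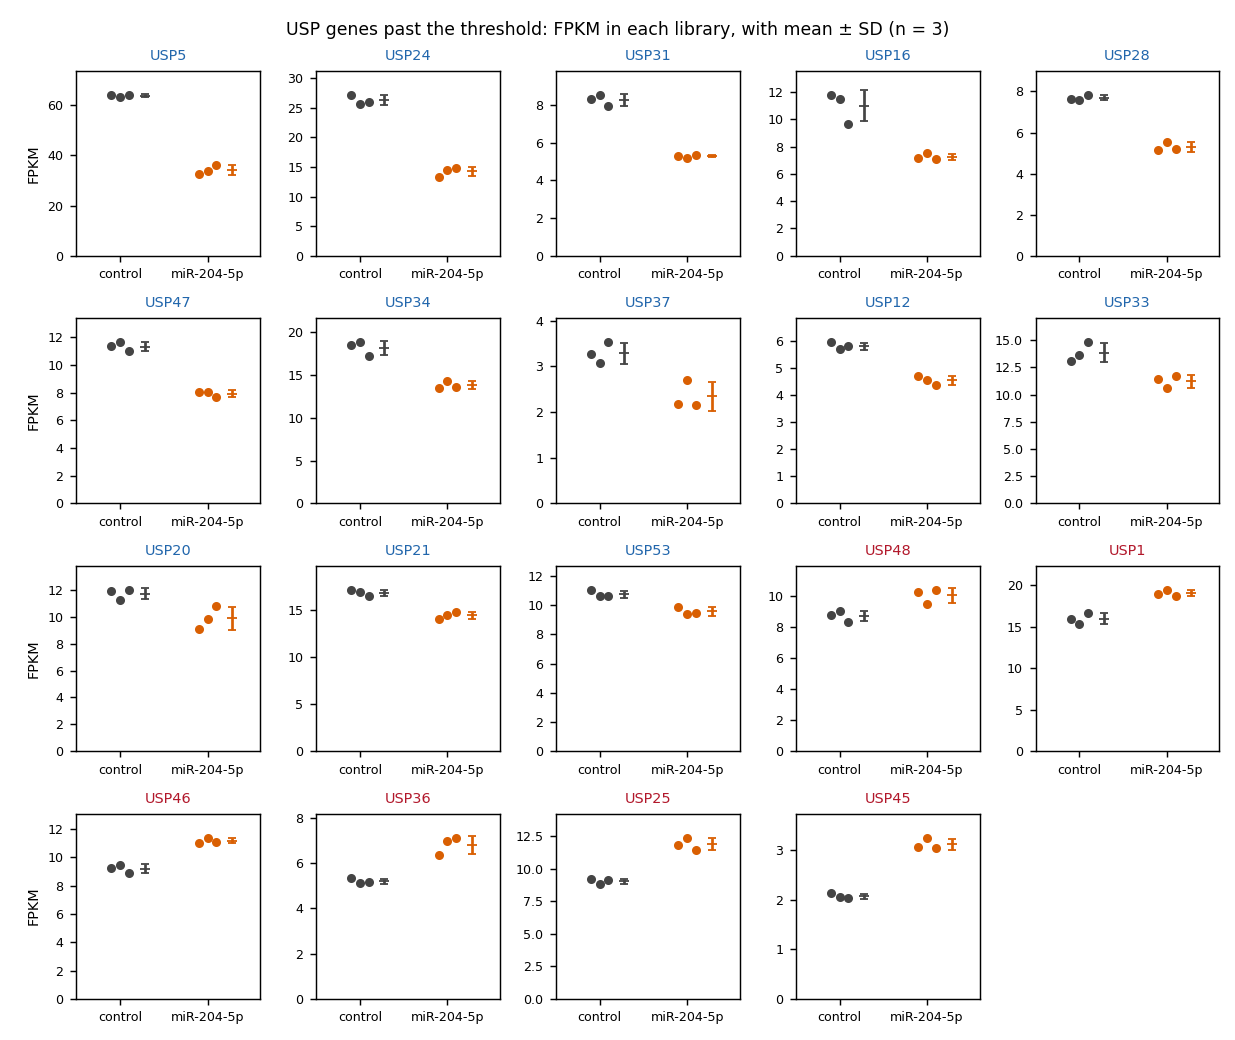
FPKM of the 19 USP genes past the threshold in each of the 3 libraries per group, with the mean ± SD, for the 13 that fell (blue titles) and the 6 that rose (red titles). In all 19 panels the groups do not overlap, and USP5 and USP24 with miR-204-5p mimics lie at 0.535 and 0.543 times the control mean. The 19 genes were picked by the test on these same values, so the separation adds nothing to the calls.

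Called genes were found at all but the lowest levels. The 13 that fell had mean levels of 2.81 to 49.0 FPKM (median 10.2 FPKM), the 6 that rose 2.60 to 17.5 FPKM (median 9.78 FPKM), and the 28 not called 0.0320 to 58.4 FPKM (median 5.74 FPKM).

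Related USPs were then set side by side in 8 pairs of close relatives. The pairs were chosen after the values had been seen, so their differences are given as a description without a test, and they rest on the same values as the single genes. For each library the log2(FPKM + 1) of one gene was subtracted from that of the other. USP25 exceeded USP28 by 1.00 to 1.07 with miR-204-5p mimics and by 0.19 to 0.23 in controls. USP46 exceeded USP12, which shares WDR48 with it, by 1.08 to 1.18 and by 0.54 to 0.65. USP5 exceeded USP13 by 2.44 to 2.57 with miR-204-5p mimics and by 3.17 to 3.33 in controls. For USP20 and USP33, which both fell, the differences overlapped between the groups (-0.30 to -0.09 and -0.28 to -0.12). In the other 4 pairs the difference of the log2 fold changes was 0.43 for USP36 and USP42, 0.19 for USP54 and USP53, 0.17 for USP15 and USP4 and 0.12 for USP11 and USP4.

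**Figure D4:**
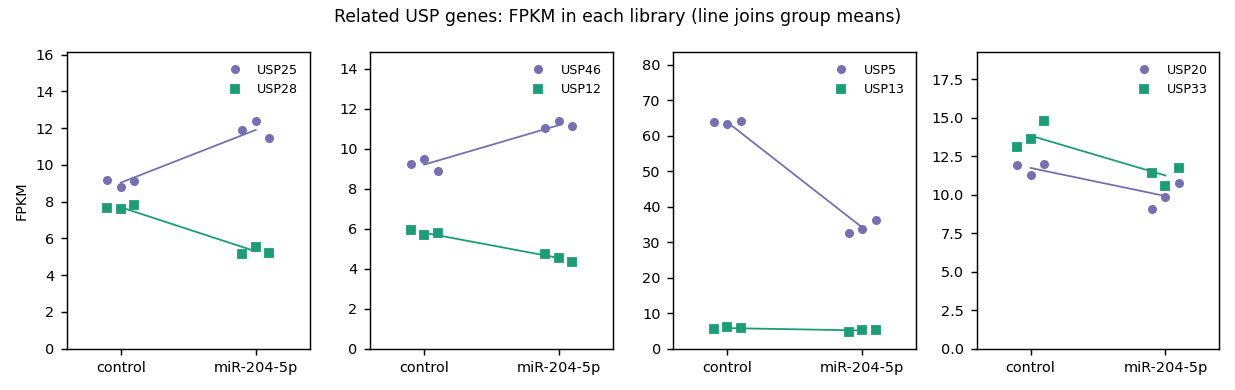
FPKM of 4 pairs of related USP genes in each library, with lines joining the group means. USP25 rises while USP28 falls, USP46 rises while USP12 falls, USP5 falls towards USP13, and USP20 and USP33 both fall.

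The seed matches shown at the start were counted over the family. Of the 46 USP genes with an annotated 3'UTR, 15 (32.6%) held a match in the longest 3'UTR, beside 27.1% of 14645 genes. An 8mer was held by 4 USP genes (8.7% beside 8.6% of all), a 7mer-m8 at best by 7 (15.2% beside 9.83%) and a 7mer-A1 at best by 4 (8.7% beside 8.67%). The median length of the longest 3'UTR was 1746 bases for USP genes and 1251 bases for all genes. Of the 15 USP genes with a match, 5 fell and 2 rose, with a median log2 fold change of -0.05, and of the 31 without one, 8 fell and 4 rose, with a median of -0.06. Over all genes 27% fell and 16.4% rose among the 3969 with a match (median -0.03), and 13.4% fell and 27.2% rose among the 10676 without one (median 0.06). Within the family, genes with and without a 3'UTR match therefore had nearly equal medians. The 4 genes with an 8mer went separate ways: USP28 fell, USP46 rose, and USP14 and USP27X were not called. Their median log2 fold change was -0.26. Of the 1260 of all genes with an 8mer in the 3'UTR, 422 fell and 168 rose, with a median of -0.08. The 3'UTR sites of USP14, USP8 and USP9X lie outside the transcript listed for the gene. Those of USP36 lie in the last exon of a transcript of 3 exons, at chr17:78796339-78796345 and chr17:78795990-78795996 (minus strand). The transcript listed for USP36 runs further downstream, to chr17:78787381, and the sites were not located in it. Whether the FPKM of these genes cover the sites is unknown.

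Coding sequences held a match in 21 of 47 USP genes (44.7%), beside 23% of 14727 genes. The median coding length was 2892 bases for USP genes and 1401 bases for all genes. Of the 21, 9 fell and 1, USP1, rose, with a median log2 fold change of -0.15. Among the 3382 of all genes with a coding match 22.2% fell and 19.5% rose, with a median of -0.0077. Of the 26 without a coding match, 4 fell (USP5, USP12, USP33 and USP21) and 5 rose. Among the 11345 of all genes without a coding match, 15.5% fell and 25.6% rose. The 6 genes with a coding 8mer (12.8%, beside 6.96% of all genes) were USP24, USP16, USP37, USP53, USP10 and USP40. The first 4 fell, and the median of the 6 was -0.26. Of the 1025 of all genes with a coding 8mer, 276 fell and 166 rose, with a median of -0.04.

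Both kinds of match occurred in 7 USP genes, namely USP31, USP16, USP28, USP47, USP37, USP9X and USP6. The first 5 of these fell, the other 2 were not called, and the median log2 fold change was -0.47. Of 8 genes with a match in the 3'UTR alone, none fell by the limma test and 2 rose (USP46 and USP36), with a median of 0.05. Among these 8, the sites of USP14, USP8 and USP36 were not located in the listed transcript. Of 14 with a coding match alone, 4 fell and 1 rose (median -0.13), and of 18 with neither, USP41 without an annotated 3'UTR included, 4 fell and 3 rose (median -0.02). Over all genes with both regions annotated, 30.4% fell and 13.1% rose among the 1052 with both kinds of match, 25.7% and 17.6% among the 2917 with a match in the 3'UTR alone, 18.6% and 22.4% among the 2318 with a coding match alone, and 12% and 28.5% among the 8358 with neither. USP5, the gene with the largest called fall, held no match in either region. These matches are letters in a sequence and do not show that the miRNA bound there. Whether coding matches lie in the listed transcripts was not checked for all genes. The only coding match of USP54 lies outside its listed transcript. For USP34 the coding 7mer-A1 lies outside the listed transcript and the 7mer-m8 within its span.

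**Figure D5:**
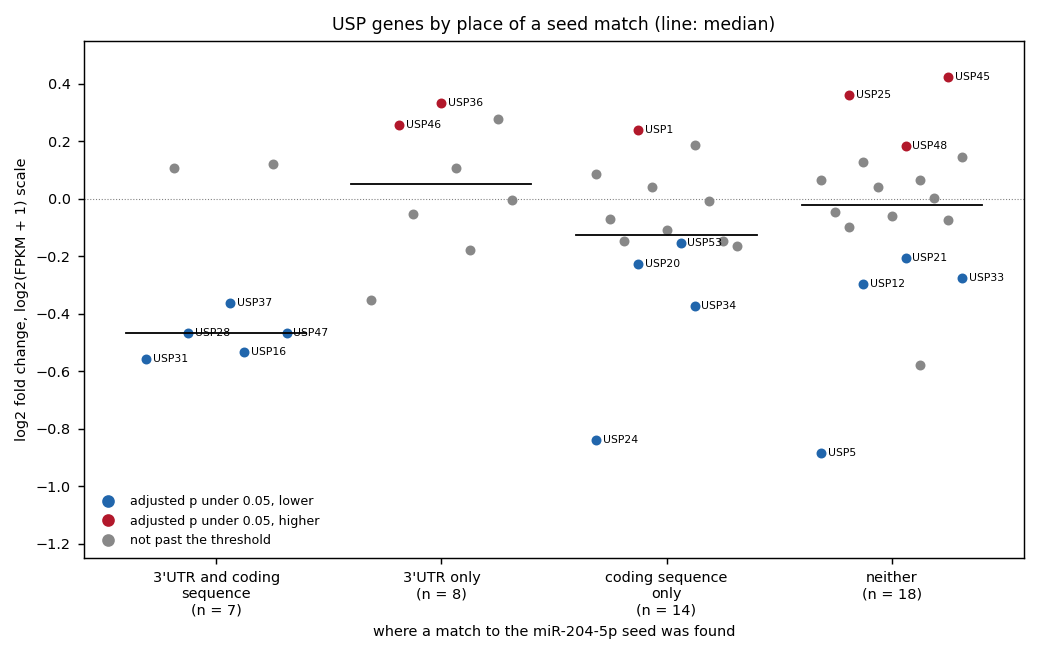
Log2 fold change of the 47 USP genes, on the log2(FPKM + 1) scale, by where a match to the miR-204-5p seed was found, with the median of each class as a line. The class with matches in both regions (n = 7) has a median of -0.47 and holds 5 genes that fell, while USP5 with the largest fall lies in the class without a match.

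The other deubiquitinase families were read from fixed lists for comparison. These lists follow protein folds and include genes whose products lack ubiquitin protease activity, such as PSMD7, EIF3H, EIF3F, PAN2 and USPL1. Of their 41 genes in the table, 7 fell, 16 rose and 18 were not called, with a median log2 fold change of 0.09. This is 17.1% lower and 39% higher, beside the 27.7% and 12.8% of USP genes and the 16.8% and 23.9% of all genes, and the difference between the families was not tested. The largest called rise among them on the log2(FPKM + 1) scale was that of OTUD4, of the OTU family, from 5.45 ± 0.185 FPKM to 11.6 ± 0.380 FPKM (log2 fold change 0.96, adjusted p = 7.36e-05 with limma). UCHL1, a deubiquitinase of neurons, was scarce and rose from 0.0717 ± 0.0425 FPKM to 0.383 ± 0.0171 FPKM (log2 fold change 0.37, adjusted p = 0.00102 with limma), and with a pseudocount of 0.1 its log2 fold change of 1.52 exceeded the 1.07 of OTUD4. PSMD14, the deubiquitinase of the proteasome lid, rose from 29.5 ± 1.39 FPKM to 49.5 ± 4.05 FPKM (log2 fold change 0.73, adjusted p = 0.000456 with limma). UCHL5, which like USP14 binds the proteasome, rose from 4.36 ± 0.132 FPKM to 6.84 ± 0.340 FPKM (log2 fold change 0.55, adjusted p = 0.000699 with limma). Of the 3 deubiquitinases that act at the proteasome, PSMD14 and UCHL5 thus rose, and USP14 was not called with a log2 fold change of -0.35.

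By family, 1 of 4 UCH genes fell and 3 rose, 4 of 15 OTU genes fell and 6 rose, and 2 of 11 genes with a JAMM or related MPN domain fell (BRCC3 and the proteasome subunit gene PSMD7, named after its values had been seen) and 2 rose. Of 3 Josephin genes 1 rose, as did 2 of 5 MINDY and ZUP1 genes, and none of these fell by the limma test. BRCC3, which cuts K63-linked chains in DNA repair, fell (log2 fold change -0.62, adjusted p = 0.00228 with limma), as did TNFAIP3, an inhibitor of NF-kappaB (log2 fold change -0.45, adjusted p = 0.00313 with limma). Of the 3 genes with a USP fold but another symbol, PAN2 and USPL1 rose, with log2 fold changes of 0.50 and 0.44, and CYLD, a tumour suppressor in NF-kappaB signalling, was not called at 7.40 ± 0.753 FPKM against 6.68 ± 0.966 FPKM.

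Of 12 rows of USP partners, 1 fell, 5 rose and 6 were not called, where over all genes 16.8% fell and 23.9% rose. The rows belong to 11 listed genes, because ATXN7 stood under separate gene identifiers, none of them called. Partners of USP22 in SAGA went separate ways: ATXN7L3 fell from 16.3 ± 0.235 FPKM to 11.8 ± 0.450 FPKM (log2 fold change -0.44, adjusted p = 0.000593 with limma), and ENY2 rose from 11.8 ± 0.813 FPKM to 18.3 ± 1.89 FPKM (log2 fold change 0.59, adjusted p = 0.00217 with limma). WDR48, which activates USP1, USP12 and USP46, was at 11.4 ± 1.06 FPKM against 9.26 ± 0.961 FPKM and was not called (log2 fold change 0.27, adjusted p = 0.0554 with limma). Of 4 genes that code for ubiquitin, RPS27A rose (log2 fold change 0.21, adjusted p = 0.0207 with limma; lost without the second library with miR-204-5p mimics or without the first or second control, with adjusted p-values up to 0.0701), and of both ubiquitin-activating enzymes UBA6 fell (log2 fold change -0.22, adjusted p = 0.00694 with limma).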

How the data were processed

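RNA of 6 UM-SCC1 cultures in 2 groups of 3 was sequenced after TruSeq library preparation on an Illumina HiSeq instrument, and the submitters' processing notes name HISAT2, StringTie and hg38. The authors deposited 1 table of FPKM values for 14959 genes, each with 1 listed transcript, its length and its coordinates. The annotation is not given in the sources used here, nor whether a value covers the listed transcript or the gene. For this reason the 3 USP genes with a listed transcript under 25% of the longest (USP1, USP36 and USP8) are named as such. Others were also listed with a partial transcript. Among them were USP39 (610 of 2177 bases), USP14 (1803 of 4921), USP34 (4309 of 11357) and USP21 (1150 of 2514). The table's columns of log fold changes, p-values and FDR from the authors' edgeR comparison were not used. FPKM are not counts, so moderated two-sided tests of limma 3.58.1 (R 4.3.3), whose prior variance followed the mean level (trend), were run on log2(FPKM + 1) without a filter or further scaling, with Benjamini-Hochberg adjustment over all genes at 0.05. The procedure was tested on simulated data. The p-values set the difference between the groups against the spread between these cultures, with the variance of each gene moderated over all genes.

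All USP genes were named. Of the other lists, the 3 called genes with the largest change per list could be named, with CYLD, WDR48, ATXN7L3 and PSMD14. Members and lists were chosen with earlier results of these data known. Under the same naming rule GENCODE 29 holds 50 protein-coding genes, of which USP26, USP29 and USP50 were not analysed here. The longest 3'UTR and coding sequence of each gene in GENCODE 29 were searched for seed matches. The alternatives were another pseudocount (0.1), a mean of at least 1 FPKM, a block for the replicate number, leaving out each library, equal medians, quantile normalization and no trend.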

Additional observations from a re-analysis of the deposited data

How the results depend on the processing

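With 19 USP genes called (13 lower, 6 higher), the count was 19 with a pseudocount of 0.1 and without the trend, 21 with a mean of at least 1 FPKM, 21 with equal medians, 22 with quantile normalization (17 lower, 5 higher) and 16 to 18 with 1 library left out. With the replicate number as a block it was 15 (10 lower, 5 higher). Over all genes 2520 were lower and 3578 higher, with quantile normalization 3026 and 3043, and with the block 2097 and 2999. For the other lists 31 genes were called (9 lower, 22 higher), and 21 to 33 under the alternatives. Deviations of libraries with the same number correlated at -0.0401, -0.021 and -0.1078 across 11504 genes, and those with different numbers at -0.0691 to 0.1097. These values give no sign that the number pairs the cultures. With 3 libraries per group and genes that are not independent, they cannot exclude it. Of the 19 called genes, 15 (10 lower, 5 higher) were called under all 12 alternatives. USP20 kept its call under 6 of the 12, USP37 under 8, USP48 under 4 and USP53 under 6. Of the 28 genes not called, 6 were called under at least 1 alternative, namely USP10 under 5, USP14 under 3, USP7 and USP27X under 2 each, and USP13 and USP41 under 1 each.

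The sign changed under some alternative for 6 genes that were not called, all with a log2 fold change near zero. With 1 library left out, USP2 ranged from -0.035 to 0.053, USP35 from -0.220 to 0.027, USP38 from -0.032 to 0.060, USP40 from -0.030 to 0.020, USP54 from -0.018 to 0.096 and USP8 from -0.091 to 0.018. USP38 was at -0.014 with equal medians and at -0.073 with quantile normalization, and USP54 at -0.029 with quantile normalization. The cause was not tested. The depth of the libraries is unknown, which limits what can be said of the 4 USP genes under 1 FPKM.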
